A study of Mus musculus with 24 samples.

Results

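The genes described here are 8 serpins of the mouse: Serpina3f, Serpina3g, Serpinb1a, Serpinb2, Serpinb6a, Serpinb9, Serpinb10 and Serping1. They were taken by name from a table of 53801 genes that held 68 genes with a serpin symbol, and the set was chosen by measured values, the near absence of Serpina3g from cells without an ERG construct and the unequal response of Serpinb10 to the drug. Those values are therefore given as descriptions with no test: Serpina3g between constructs, and Serpinb10 in every comparison. The RNA came from ER-Hoxb8 cells, a granulocyte-monocyte progenitor line from C57BL/6 mice that a Hoxb8 protein under estrogen control keeps from maturing, and that forms granulocytes after estrogen is taken away. The cells were stably transduced with a lentivirus carrying human ERG with the P199L substitution (P199L-ERG), human ERG without it (WT-ERG) or no insert (BB, the backbone), sorted for GFP, and washed free of beta-estradiol in all groups. They then received BRD3308, an inhibitor of the histone deacetylase HDAC3, at 5 µM, or its solvent DMSO, for 36 h. Each of the 6 groups had 4 libraries from separate experiments, but no source names separate transductions for them. Construct and transduced line therefore cannot be told apart, and p-values measure only the spread between these libraries, which may be technical.

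Serpins are protease inhibitors that work as bait. The protease cuts an exposed loop of the serpin, the serpin then changes its shape, and the enzyme stays bound and deformed. Those named with an A are mostly secreted, those named with a B lack a classical secretion signal and mostly stay inside the cell, and myeloid progenitors need them because they pack large amounts of serine proteases, such as elastase, cathepsin G and proteinase 3, into granules.

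The 8 genes lie in 4 places of the GRCm38 genome, by the GENCODE M21 annotation. Serpina3f and Serpina3g are neighbors on the plus strand of chromosome 12, at 104214544 to 104221129 and 104236245 to 104241939. Serpinb2 and Serpinb10 overlap on the plus strand of chromosome 1, at 107511423 to 107535478 and 107529003 to 107549271, and share 291 exon bases, 8.34% of the Serpinb10 exons. Serpinb10 is annotated as a polymorphic pseudogene, a gene that is intact in some strains and not in others. Whether its RNA in these cells encodes an intact protein was not tested. Serpinb1a (32842092 to 32851185, minus strand), Serpinb9 (33003250 to 33017957, plus strand) and Serpinb6a (33917918 to 34002794, minus strand) lie on chromosome 13, and Serping1 (84765387 to 84775444, minus strand) lies on chromosome 2. The exons of Serpinb6a overlap those of 3 genes on the other strand, Nqo2, 1110046J04Rik and Ripk1, over 762, 584 and 241 bases. Of all stretches of 60 bases in the Serpina3g transcripts, 11.5% also occur in other genes of its family (Serpina3h, Serpina3i, Serpina3f and Serpina3e-ps), so that reads of these genes may be shared or lost.

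ERG belongs to the ETS family, whose members bind DNA around a GGAA core. The 250 bases before the RefSeq start are shown for the neighbors Serpina3g and Serpina3f, which are close relatives, and for Serpinb10, which was read in all groups (RefSeq, GRCm38.p6, plus strand of each; chr12:104235897-104236146, chr12:104214294-104214543 and chr1:107528753-107529002). Serpina3f has 2 RefSeq starts, and the window of the first is shown. Capitals mark GGAA on either strand, which is written TTCC where it lies on the other one.
Serpina3g: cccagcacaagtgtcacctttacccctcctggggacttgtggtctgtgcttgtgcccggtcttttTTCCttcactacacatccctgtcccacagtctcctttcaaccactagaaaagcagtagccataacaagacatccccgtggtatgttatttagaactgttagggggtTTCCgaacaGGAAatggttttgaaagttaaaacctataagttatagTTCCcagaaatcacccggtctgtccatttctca
Serpina3f: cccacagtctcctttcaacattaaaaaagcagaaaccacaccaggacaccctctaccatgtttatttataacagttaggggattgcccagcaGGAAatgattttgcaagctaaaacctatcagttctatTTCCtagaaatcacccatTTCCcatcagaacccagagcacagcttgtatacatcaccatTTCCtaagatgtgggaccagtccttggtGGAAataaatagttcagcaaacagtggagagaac
Serpinb10: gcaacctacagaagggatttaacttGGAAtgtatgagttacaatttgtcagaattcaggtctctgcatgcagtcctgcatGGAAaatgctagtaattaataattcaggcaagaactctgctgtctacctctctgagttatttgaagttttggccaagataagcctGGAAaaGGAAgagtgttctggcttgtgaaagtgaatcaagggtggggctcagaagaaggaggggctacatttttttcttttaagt
The Serpina3g window held 4 GGAA cores, at 185, 79, 70 and 33 bases before the start, the Serpina3f window 5 and the Serpinb10 window 4. These numbers are common: 93.4% of 32851 promoter windows of this length held a GGAA, with a median of 3. The longer form GGAAGT was in none of the windows printed and in 19.7% of all windows. A stretch of 147 aligned positions was 81% identical between the Serpina3g and Serpina3f windows, and in both it held TTCNNNGAA, the form bound by STAT factors, which overlapped a GGAA core there and was in 7.02% of all windows. The window of the other Serpina3f start, which is not shown, held 6 GGAA cores. Its best alignment with the Serpina3g window was 87.3% identical over 55 positions. The Serpinb10 window had no TTCNNNGAA, and it lies inside the annotated Serpinb2 gene but in none of its exons. These are matches of letters and do not show that a factor binds.

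The 24 libraries held 12510036 to 16280939 counts. After the filter on low counts, 12963 genes were tested, among them 5 of the 8 serpins (Serpina3g, Serpinb1a, Serpinb6a, Serpinb9 and Serpinb10). Serpina3f (32 counts in all libraries) and Serpinb2 (118 counts) fell under it, and Serping1 had 0 counts. Mouse Erg was read at 89.2 to 124 CPM in all groups, BB included. Since the construct is human, this row does not check it. CPM are counts per 1e6 of the library total scaled by its TMM normalization factor. Markers of granulocyte-monocyte progenitors summed to 22700 to 30800 CPM and those of neutrophils to 2840 to 7490 CPM. Markers of monocytes summed to 307 to 1430 CPM, of mast cells and basophils to 289 to 554 CPM, of T and NK cells to 97.8 to 347 CPM, of B cells to 12.6 to 69.5 CPM, of megakaryocytes and erythroid cells to 25.2 to 70.3 CPM, and of dendritic cells to 0.774 to 9.48 CPM. Fcer1a, Ncr1, Il2rb and Hbb-bt had no count in any library. Of the 6 T and NK cell markers only 1 passed the filter, so their sum rests mostly on 1 gene. Replicate 4 of P199L-ERG and of WT-ERG in DMSO stood apart from the other libraries of their groups: their deviations fell with exon length (r = -0.39 and -0.40 across 11450 genes, against -0.16 to 0.36 in the other 22 libraries). They did not stand apart to the same degree. The chi-square per degree of freedom between libraries of a group was 15.7 to 26.6 in pairs with P199L-ERG replicate 4. It was 4.38 to 9.31 in pairs with WT-ERG replicate 4 and at most 7.14 in all other pairs. The fits were repeated without both, and values from them stand beside the results for the tested members and, among other genes, for Elane, Plau and Serpinb8. In such bulk RNA, fewer cells of a type and less RNA per cell cannot be told apart.

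**Figure D1:**
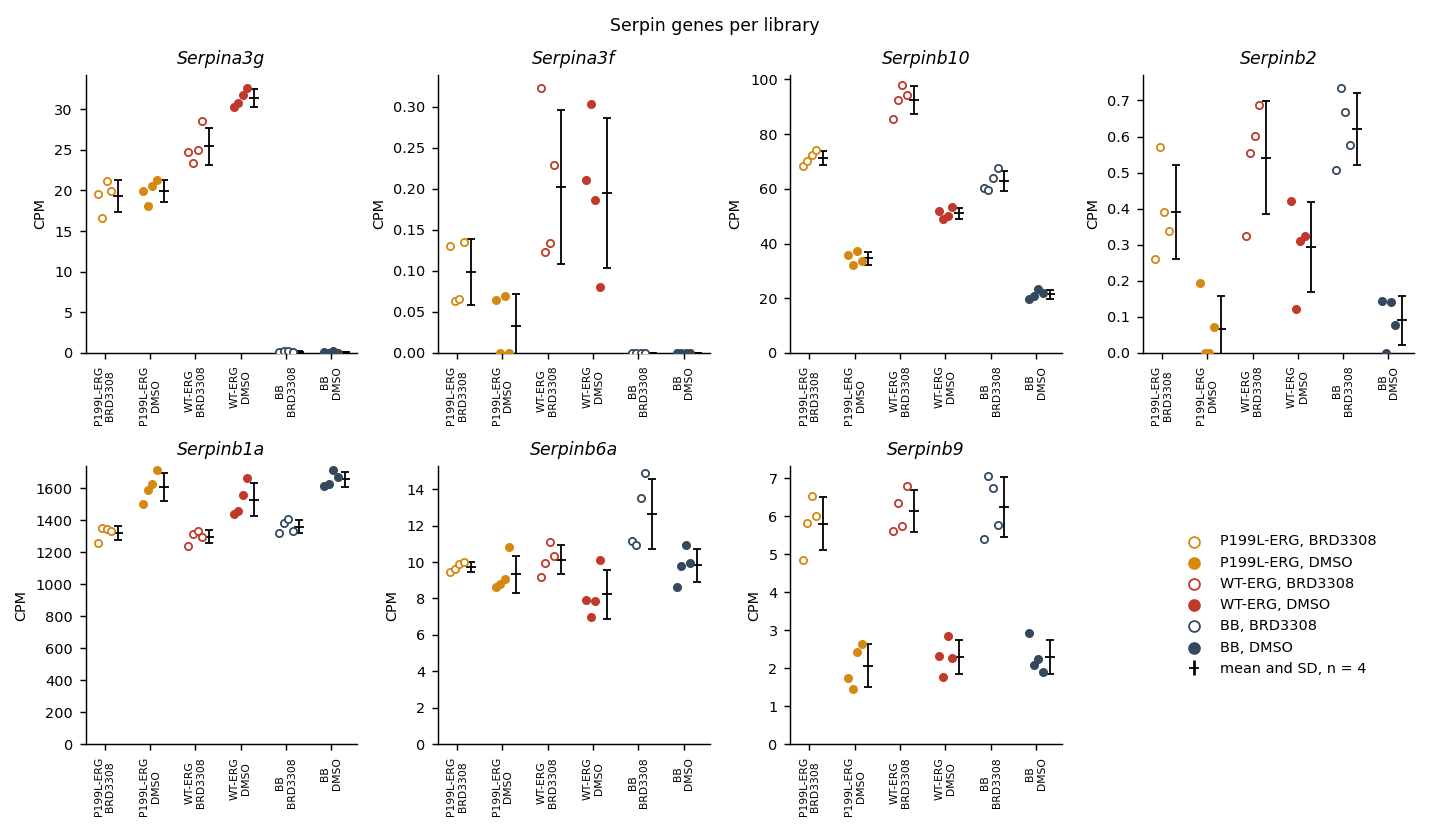
CPM of 7 serpin genes in each library, by construct and treatment; open circles are BRD3308 libraries, filled circles DMSO libraries, bars the mean and SD of 4 libraries. Serpina3g stands at 16.6 to 32.6 CPM in all ERG libraries and at 0.22 CPM or less in all BB libraries, and Serpinb10 and Serpinb9 are higher with BRD3308 in every construct.

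Serpina3g, also called Spi2A, is an intracellular member of its clade that in the mouse inhibits cysteine cathepsins as well as serine proteases. In DMSO it was read at 20.0, 18.1, 20.6 and 21.3 CPM in the P199L-ERG libraries, at 30.2, 30.8, 31.8 and 32.6 CPM in the WT-ERG libraries, and with 1, 0, 3 and 0 counts in the BB libraries. With BRD3308 it was read at 19.6, 16.6, 21.2 and 19.9 CPM in P199L-ERG cells, at 24.7, 23.4, 25.0 and 28.6 CPM in WT-ERG cells, and with 1, 3, 3 and 2 counts in BB cells. The lowest ERG library was thus far above the highest BB library, and under both treatments all WT-ERG libraries lay above all P199L-ERG libraries.

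Summed over libraries in DMSO, 1193 counts in P199L-ERG cells stood against 4 in BB cells. The ratio per scaled library total was 282.1, with an exact 95% interval for counting error of 109.9 to 1037. For 1854 counts in WT-ERG cells against the same 4 the ratio was 443.2 (172.8 to 1628). Replicate 3 of BB in DMSO held 3 of these 4 counts, and without it the WT-ERG ratio was 1328. With BRD3308 the BB libraries held 9 counts, and the ratios were 124.8 for P199L-ERG (65.5 to 273.6) and 163.4 for WT-ERG (85.9 to 358.1). Between the ERG proteins the ratio of P199L-ERG to WT-ERG was 0.64 in DMSO (0.59 to 0.68) and 0.76 with BRD3308 (0.71 to 0.82). The fitted log2 fold changes against BB in DMSO were 7.98 for P199L-ERG and 8.63 for WT-ERG, and 7.95 and 8.61 without both replicates 4 that stand apart. These ratios chose the gene and carry no test, and intervals cover counting error only.

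The response of Serpina3g to BRD3308 within a construct was tested. It fell in WT-ERG cells by 0.31 on the log2 scale (standard error, SE, 0.08, adjusted p = 0.00225, n = 4 against 4), to 25.4 ± 2.2 CPM with BRD3308, against 31.4 ± 1.1 CPM in DMSO (SD). The 4 BRD3308 libraries all lay below the 4 DMSO libraries. In P199L-ERG cells the log2 fold change was -0.05 (SE 0.09, 95% interval -0.22 to 0.13, adjusted p = 0.673), with means of 19.3 ± 1.9 CPM with BRD3308 and 20.0 ± 1.3 CPM in DMSO. The difference between these responses, P199L-ERG minus WT-ERG, was 0.26 (SE 0.12) and was not tested, since the gene was chosen on its values between constructs. Without both replicates 4 that stand apart, the fall in WT-ERG cells was 0.29 (log2 fold change -0.29, adjusted p = 0.00387), and P199L-ERG cells gave -0.02 (adjusted p = 0.881). The BB cells, with 9 counts in BRD3308 against 4 in DMSO, gave no usable response (1.04, SE 0.75, adjusted p = 0.272). In order of level the groups ran from WT-ERG in DMSO to WT-ERG with BRD3308 and then to both P199L-ERG groups, whose ranges overlapped.

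Serpina3f, the neighbor and close relative of Serpina3g, was read at a very low level. It had 2, 1, 1 and 2 counts with BRD3308 and 1, 0, 1 and 0 counts in DMSO in P199L-ERG cells, 5, 2, 2 and 3 counts with BRD3308 and 3, 5, 3 and 1 counts in DMSO in WT-ERG cells, and 0 counts in all 8 BB libraries. P199L-ERG in DMSO overlapped with BB at 0. In a fit with no filter on low counts, WT-ERG against BB was called in DMSO (edgeR adjusted p = 0.00342) and with BRD3308 (adjusted p = 0.00429). P199L-ERG against BB was not (adjusted p = 0.469 in DMSO and 0.103 with BRD3308). In that fit P199L-ERG against WT-ERG was not called either (adjusted p = 0.2364 in DMSO and 0.7745 with BRD3308), so the ERG proteins were not shown to differ. DESeq2 gave no adjusted p-value for these comparisons. The counts came to 0.337% of the Serpina3g counts in P199L-ERG cells and 0.713% in WT-ERG cells. Since the transcripts share stretches of sequence, these few counts could be reads of Serpina3g, which was not tested. In BB cells 0 counts allow up to 0.053 CPM in DMSO (3 counts over the group).

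Over the 24 libraries, the genes whose log2 CPM followed that of Serpina3g most closely were Prss16 (Pearson r = 0.981), which encodes a thymus-specific serine protease, Ecm1 (0.971), an extracellular matrix protein, and Cebpa (0.967), a transcription factor of granulocyte progenitors, out of 9754 genes. The groups make most of this likeness, and it is given with no test. None of them had the on-off pattern. Cebpa averaged 475.6 CPM in P199L-ERG cells, 488.9 CPM in WT-ERG cells and 368.3 CPM in BB cells in DMSO. Ecm1 averaged 33.6, 43.2 and 13.9 CPM in the same order of constructs.

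**Figure D2:**
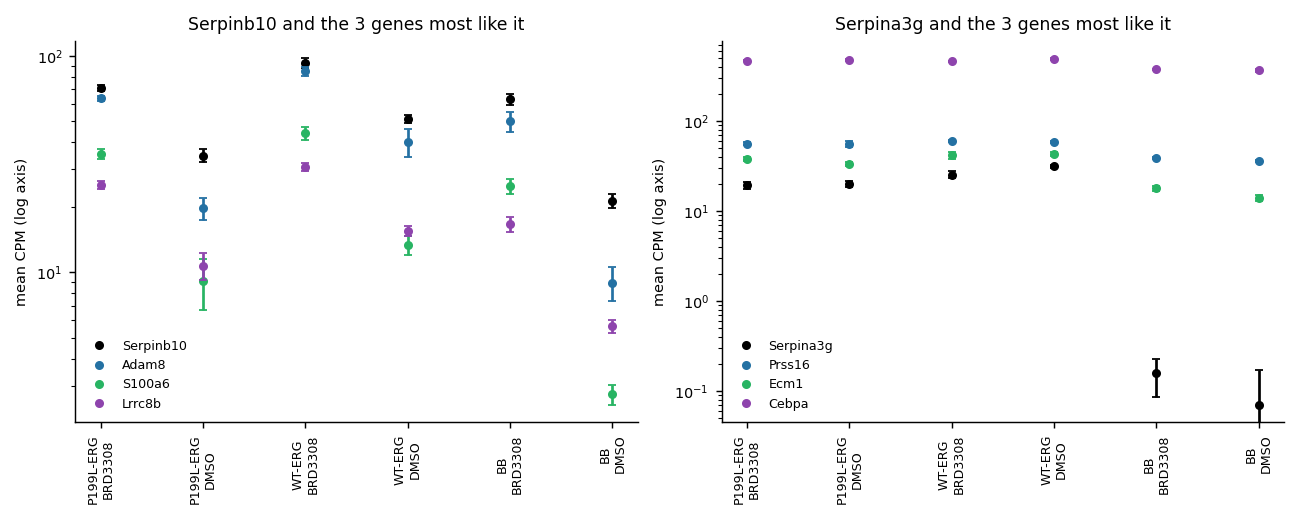
Mean CPM (log axis) of Serpinb10 and of Serpina3g, each with the 3 genes whose log2 CPM correlated best with it over 24 libraries; bars are the SD of 4 libraries, and a lower bar that would pass 0 runs off the axis. Adam8, S100a6 and Lrrc8b follow Serpinb10 in the order of the groups, while the genes most like Serpina3g are read in BB cells and Serpina3g is almost not.

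Serpinb10, called bomapin in humans, is known for its expression in blood-forming cells and early myeloid cells. With BRD3308 it was read at 68.4, 70.3, 72.4 and 74.1 CPM in P199L-ERG cells, against 35.8, 32.0, 37.3 and 33.6 CPM in DMSO. In WT-ERG cells the values were 85.7, 92.6, 97.9 and 94.3 CPM with BRD3308 and 52.0, 48.8, 50.2 and 53.4 CPM in DMSO. In BB cells they were 60.3, 59.7, 64.1 and 67.6 CPM with BRD3308 and 19.6, 20.7, 23.4 and 21.9 CPM in DMSO. No library of any group overlapped with one of another group: WT-ERG, P199L-ERG and BB followed each other downwards with BRD3308, and again, lower, in DMSO.

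BRD3308 thus went with a 2.06-fold higher level of Serpinb10 in P199L-ERG cells (log2 fold change 1.04, SE 0.06), a 1.81-fold higher level in WT-ERG cells (0.86, SE 0.05) and a 2.94-fold higher level in BB cells (1.56, SE 0.06). The differences between these responses on the log2 scale were -0.52 for P199L-ERG minus BB (SE 0.08), -0.70 for WT-ERG minus BB (SE 0.08) and 0.18 for P199L-ERG minus WT-ERG (SE 0.08). Seen between constructs, Serpinb10 stood in DMSO at -0.56 (SE 0.06) for P199L-ERG against WT-ERG, 0.70 (SE 0.06) for P199L-ERG against BB and 1.25 (SE 0.06) for WT-ERG against BB. With BRD3308 the same log2 differences were smaller, at -0.38, 0.18 and 0.56 (SE 0.05 each). Without both replicates 4 that stand apart, the responses were 1.03 in P199L-ERG and 0.88 in WT-ERG cells, and the differences in DMSO were -0.52 for P199L-ERG against WT-ERG, 0.71 for P199L-ERG against BB and 1.23 for WT-ERG against BB. Serpinb10 was chosen for this pattern, so none of these values carries a test.

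Closest to Serpinb10 over the 24 libraries were Adam8 (r = 0.989), a membrane metalloprotease of myeloid cells, S100a6 (0.978), a calcium-binding protein, and Lrrc8b (0.977), a subunit of volume-regulated anion channels. Adam8 averaged 63.6 CPM with BRD3308 and 19.8 CPM in DMSO in P199L-ERG cells, 84.8 and 40.1 CPM in WT-ERG cells, and 49.8 and 8.96 CPM in BB cells. S100a6 averaged 35.3 and 9.12 CPM, 44.1 and 13.4 CPM, and 25.0 and 2.73 CPM in the same order. Like Serpinb10, all of these genes had their lowest mean in BB cells in DMSO and their highest in WT-ERG cells with BRD3308. They were picked for this likeness over the same libraries, so it is given with no test.

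Serpinb2, or plasminogen activator inhibitor type 2, inhibits urokinase, which Plau encodes. It had 4, 9, 6 and 5 counts with BRD3308 against 3, 0, 0 and 1 in DMSO in P199L-ERG cells, 5, 9, 9 and 9 against 6, 2, 5 and 4 in WT-ERG cells, and 8, 10, 10 and 8 against 2, 0, 2 and 1 in BB cells. The BRD3308 libraries lay above all DMSO libraries in P199L-ERG and BB cells, and overlapped with them in WT-ERG cells. The gain was 0.324 CPM in P199L-ERG cells and 0.531 CPM in BB cells (two-sided exact permutation test, p = 0.0286 in each, the smallest that 4 against 4 allows, Benjamini-Hochberg adjusted p = 0.0429 over 3 comparisons), and 0.248 CPM in WT-ERG cells (exact permutation p = 0.0857, adjusted p = 0.0857). This test was added because the filter had removed the gene. Whether the responses differ between constructs was not tested. Serpinb2 shares exon bases with Serpinb10, which was read far more often and also went up with BRD3308, and the part of those reads in its counts was not tested.

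Serpinb1a encodes the main inhibitor of elastase, cathepsin G and proteinase 3 inside neutrophils and their precursors, and it was by far the most abundant of these serpins. Per kilobase of exon its group means were 563.6 to 719.7 CPM, against 6.14 to 26.5 for Serpinb10, 0.034 to 14.9 for Serpina3g, 1.52 to 2.34 for Serpinb6a and 0.59 to 1.79 for Serpinb9. It was read at 1257, 1354, 1344 and 1333 CPM with BRD3308 against 1505, 1592, 1631 and 1718 CPM in DMSO in P199L-ERG cells. In WT-ERG cells these values were 1243, 1314, 1337 and 1297 CPM against 1438, 1459, 1560 and 1666 CPM, and in BB cells 1319, 1382, 1409 and 1336 CPM against 1617, 1626, 1717 and 1671 CPM. In each construct all BRD3308 libraries lay below all DMSO libraries.

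The fall of Serpinb1a with BRD3308 was of like size in the 3 constructs. Its log2 fold change was -0.29 in P199L-ERG cells (SE 0.04, adjusted p = 4.07e-06), -0.24 in WT-ERG cells (SE 0.04, adjusted p = 5.03e-05) and -0.28 in BB cells (SE 0.04, adjusted p = 4.58e-06). The differences between responses had 95% intervals of -0.13 to 0.12 (P199L-ERG minus BB), -0.08 to 0.17 (WT-ERG minus BB) and -0.17 to 0.08 (P199L-ERG minus WT-ERG), and none was called. Without both replicates 4 that stand apart the fall was 0.26 in P199L-ERG cells and 0.20 in WT-ERG cells (log2 fold changes of -0.26 and -0.20, both called). In DMSO, WT-ERG cells had less Serpinb1a than BB cells (-0.11, SE 0.04, adjusted p = 0.0464), a call that held without both replicates 4 (-0.16, adjusted p = 0.00072). It was lost in 9 of the 24 fits without a single library, those without replicate 2, 3 or 4 of BB in DMSO, 1, 2 or 3 of WT-ERG in DMSO, 2 of WT-ERG with BRD3308, or 2 or 3 of P199L-ERG in DMSO. Over all alternatives its log2 fold change ran from -0.16 to -0.09 without single libraries and its adjusted p from 0.00072 to 0.173. P199L-ERG against BB gave -0.04 (SE 0.04, adjusted p = 0.532).

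The proteases that Serpinb1a inhibits did not move as a block. Elane, the gene of neutrophil elastase, rose with BRD3308 by 1.36 on the log2 scale in P199L-ERG cells, 1.36 in WT-ERG cells and 1.30 in BB cells (adjusted p = 2.02e-18, 2.09e-18 and 4.85e-18). It averaged 2745 ± 81 CPM with BRD3308 and 1072 ± 87 CPM in DMSO in P199L-ERG cells (SD). Prtn3 (proteinase 3) fell, with log2 fold changes of -0.36, -0.26 and -0.26 in P199L-ERG, WT-ERG and BB cells, and so did Ctsg (cathepsin G), with -0.27, -0.21 and -0.20. In DMSO, P199L-ERG cells had more Elane than WT-ERG cells (0.36, SE 0.05, adjusted p = 1.47e-05), and WT-ERG cells had less of it than BB cells (-0.34, SE 0.05, adjusted p = 3.35e-06). These values were 0.37 and -0.39 without both replicates 4 that stand apart, both called. Ctsg was instead higher than in BB cells in DMSO, in P199L-ERG and in WT-ERG cells. Its log2 fold changes were 0.27 to 0.31 and 0.17 to 0.24 over single libraries left out, called in all 24 fits.

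Serpinb6a, an inhibitor of cathepsin G found in many tissues, was read at a modest level. In P199L-ERG cells it had 9.43, 9.63, 9.87 and 9.99 CPM with BRD3308 against 8.62, 8.79, 9.05 and 10.8 CPM in DMSO. In WT-ERG cells it had 9.17, 9.92, 11.1 and 10.3 CPM against 7.93, 6.98, 7.87 and 10.1 CPM, and in BB cells 11.2, 10.9, 13.5 and 14.9 CPM against 8.65, 9.78, 10.9 and 9.94 CPM. Within P199L-ERG and WT-ERG cells the treatments overlapped, and replicate 4 was the highest DMSO library in both.

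Serpinb6a rose with BRD3308 in WT-ERG cells (0.31, SE 0.11, adjusted p = 0.0232) and in BB cells (0.36, SE 0.11, adjusted p = 0.00651), and gave 0.06 in P199L-ERG cells (SE 0.11, adjusted p = 0.658). The WT-ERG call was lost when replicate 1, 2 or 3 of WT-ERG in DMSO or replicate 3 of WT-ERG with BRD3308 was left out (0.24 at the lowest), and was 0.41 without both replicates 4 (adjusted p = 0.0018, with 0.0018 to 0.108 over all alternatives). The responses themselves were not shown to differ: P199L-ERG minus BB was -0.30 (95% interval -0.61 to 0.02, adjusted p = 0.419) and P199L-ERG minus WT-ERG was -0.25 (-0.57 to 0.08, adjusted p = 0.894). With BRD3308 the level was lower than in BB cells in both P199L-ERG (-0.38, SE 0.11, adjusted p = 0.0125) and WT-ERG cells (-0.32, SE 0.11, adjusted p = 0.0295). The P199L-ERG call was lost without replicate 4 of BB with BRD3308 (-0.29), and the WT-ERG call without replicate 3 or 4 of BB or replicate 1 or 2 of WT-ERG with BRD3308 (-0.24 at the smallest). In DMSO WT-ERG against BB gave -0.27 (SE 0.11, adjusted p = 0.0755), and without both replicates 4 it was called (-0.37, adjusted p = 0.0079, with 0.0079 to 0.252 over all alternatives). Of the genes that overlap it on the other strand, Nqo2 fell with BRD3308 by 0.21 in P199L-ERG cells, 0.22 in WT-ERG cells and 0.13 in BB cells on the log2 scale, and Ripk1 gave -0.08 (adjusted p = 0.114), -0.07 (adjusted p = 0.141) and -0.13 (adjusted p = 0.0126). The stretches of 60 bases that Serpinb6a shares with other genes (23.5%) lie almost all in these overlaps, and the part of such reads in its counts was not tested.

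Serpinb9 encodes the inhibitor of granzyme B that protects cytotoxic and other immune cells from their own granules. It was read at 4.85, 5.83, 6.53 and 6.01 CPM with BRD3308 against 1.74, 1.44, 2.44 and 2.64 CPM in DMSO in P199L-ERG cells. In WT-ERG cells it had 5.62, 6.35, 5.74 and 6.80 CPM against 2.32, 1.76, 2.85 and 2.27 CPM, and in BB cells 5.40, 7.05, 6.74 and 5.78 CPM against 2.93, 2.10, 2.25 and 1.89 CPM. The lowest BRD3308 library was above the highest DMSO library across all constructs.

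Serpinb9 rose with BRD3308 by 1.503 on the log2 scale in P199L-ERG cells (2.84-fold, SE of the log2 value 0.16, adjusted p = 1.78e-08), by 1.41 in WT-ERG cells (2.66-fold, SE 0.16, adjusted p = 3.51e-08) and by 1.44 in BB cells (2.71-fold, SE 0.16, adjusted p = 3.06e-08). Without both replicates 4 that stand apart, the rise was 1.64 in P199L-ERG and 1.40 in WT-ERG cells (adjusted p = 1.44e-08 and 7.31e-08). No difference between these responses was called, with 95% intervals of -0.42 to 0.56 for P199L-ERG minus BB, -0.51 to 0.46 for WT-ERG minus BB and -0.39 to 0.58 for P199L-ERG minus WT-ERG. The constructs also gave no called difference in level. The 95% intervals in DMSO were -0.57 to 0.24 for P199L-ERG against WT-ERG, -0.58 to 0.24 for P199L-ERG against BB and -0.40 to 0.40 for WT-ERG against BB. Its target had nothing to show beside it, since Gzmb was at 0 counts in all libraries and no granzyme gene passed the filter.

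Serping1 encodes the C1 inhibitor, the plasma serpin that stops the first complement proteases and plasma kallikrein. It had 0 of 355099174 counts, which allows up to 0.00845 CPM over all libraries. C1ra, the gene of its target C1r, was read and rose with BRD3308 by 2.77 on the log2 scale in P199L-ERG cells (SE 0.24), 2.36 in WT-ERG cells (SE 0.23) and 2.85 in BB cells (SE 0.23).

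**Figure D3:**
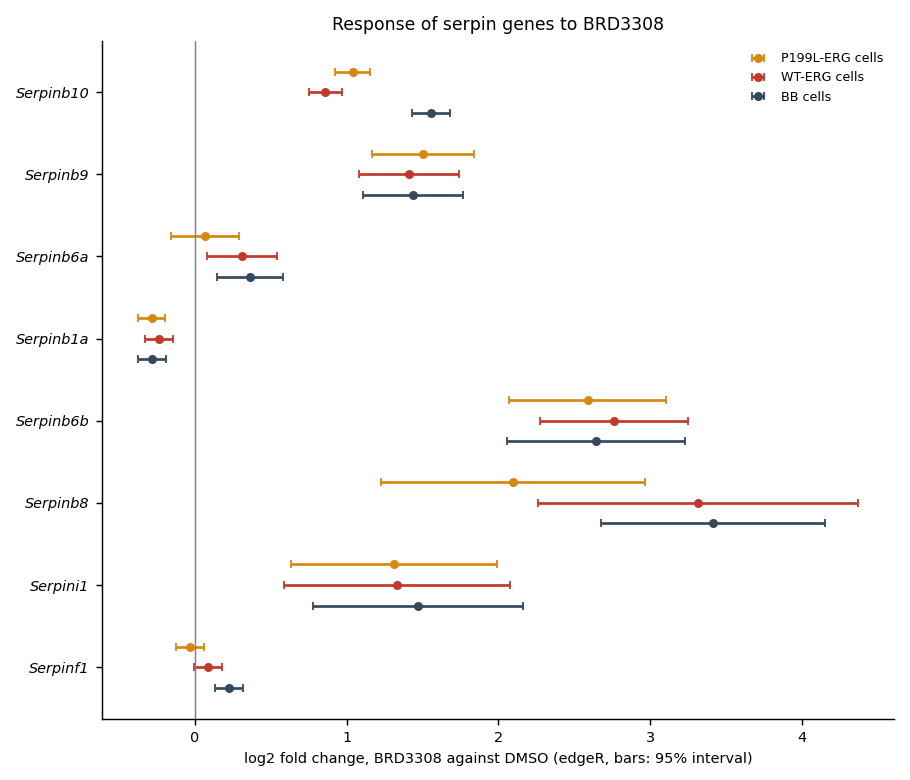
Log2 fold change of 8 serpin genes with BRD3308 against DMSO in P199L-ERG, WT-ERG and BB cells (edgeR estimate, bars the 95% interval); the upper 4 are members of the set described here, the lower 4 other serpins. Serpinb9 sits at 1.41 to 1.503 in the 3 constructs, Serpinb1a at -0.29 to -0.24, and Serpinb10 at 0.86 to 1.56.

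Counted over the members that had a test, 1 rose and 1 fell of 4 with BRD3308 in P199L-ERG cells, where 24.4% of all genes tested rose and 24.1% fell (48.5% in all). In WT-ERG cells 2 rose and 2 fell of 4, where 24.7% of all genes rose and 23.2% fell (48.0% in all), and in BB cells 2 rose and 1 fell of 3, with Serpina3g left out for its few counts there, where 24% rose and 22.0% fell (45.9% in all). About every other gene was thus called in this contrast, and counts over so few members cannot be set apart from that. Between constructs 3 members had a test. In DMSO none was called for P199L-ERG against WT-ERG (all genes 2.23% higher, 2.45% lower, 4.67% in all) or for P199L-ERG against BB (15.3% higher, 12.9% lower, 28.2% in all). For WT-ERG against BB 1 was lower (15.6% higher, 14.1% lower, 29.7% in all). With BRD3308 none was called for P199L-ERG against WT-ERG (1.31% higher, 2.09% lower, 3.40% in all). There 1 was lower for P199L-ERG against BB (8.12% higher, 8.81% lower, 16.9% in all) and 1 for WT-ERG against BB (10.4% higher, 10.7% lower, 21.1% in all). Of 3 members none had a response called different for P199L-ERG minus WT-ERG (0.0231% of all genes higher, 0.0231% lower, 0.0463% in all), P199L-ERG minus BB (0.455%, 0.594% and 1.05%) or WT-ERG minus BB (0.825%, 0.903% and 1.73%). Comparisons with the same BB, WT-ERG or DMSO libraries are not independent of each other.

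**Figure D4:**
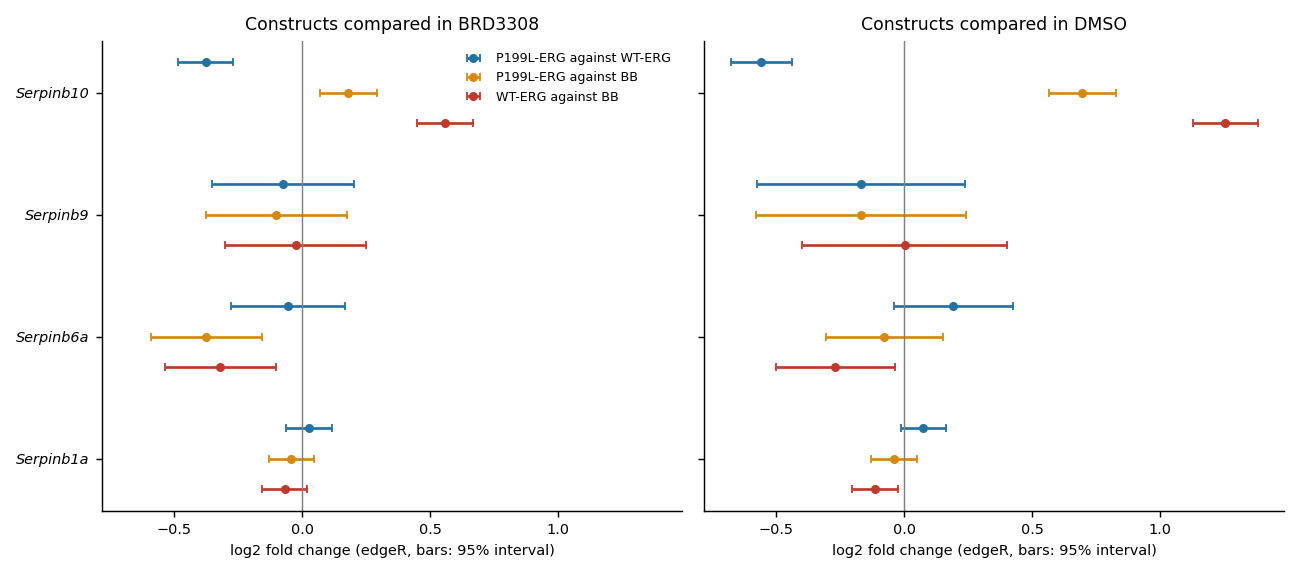
Log2 fold change between constructs for Serpinb10, Serpinb9, Serpinb6a and Serpinb1a, with BRD3308 (left) and in DMSO (right); points are edgeR estimates and bars 95% intervals. The estimates of Serpinb10, which was chosen for its pattern and carries no test, run from -0.56 to 1.25 in DMSO and from -0.38 to 0.56 with BRD3308, and those of Serpinb9 from -0.17 to 0.00.

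Of the other 60 serpin genes 5 passed the filter, and 36 of the 68 had no count in any library. Serpinb8, which in humans inhibits furin, rose with BRD3308 by 2.10 on the log2 scale in P199L-ERG cells (SE 0.42), 3.32 in WT-ERG cells (SE 0.52) and 3.42 in BB cells (SE 0.36). The WT-ERG value rests on 0, 0, 2 and 5 counts in DMSO and was 4.63 without replicate 4, 1 of the 2 libraries that stand apart, while the P199L-ERG value was 2.61 without both. It averaged 1.25 ± 0.31 CPM in P199L-ERG cells and 1.26 ± 0.07 CPM in WT-ERG cells with BRD3308, against 3.11 ± 0.49 CPM in BB cells (SD), and was lower than in BB cells in both (-1.31 and -1.30, adjusted p = 0.000474 and 0.000402). Serpinb6b, a relative of Serpinb6a, rose by 2.59 (SE 0.25) in P199L-ERG cells, 2.76 (SE 0.24) in WT-ERG cells and 2.64 (SE 0.29) in BB cells. With BRD3308, WT-ERG cells had more of it than BB cells (0.66, SE 0.18, adjusted p = 0.00705). Serpini1, the gene of neuroserpin, which inhibits tissue plasminogen activator, rose by 1.31, 1.33 and 1.47 in P199L-ERG, WT-ERG and BB cells. Serpinb8 had 0 to 8 counts per library in DMSO, Serpinb6b 4 to 20 and Serpini1 2 to 8, so that they passed the filter mainly through the BRD3308 groups, and a count of rises over the other serpins that passed says nothing of the family.

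Serpinf1, whose product PEDF has the serpin fold but inhibits no protease, was the most abundant of the other serpins, with group means of 67.6 to 79.1 CPM per kilobase. It rose with BRD3308 in BB cells (0.23, SE 0.05, adjusted p = 0.000171), and with BRD3308 it was lower in P199L-ERG than in BB cells (-0.16, SE 0.05, adjusted p = 0.0111). Serpinb12 rose in BB cells (1.12, SE 0.43, adjusted p = 0.0339) on 43 counts with BRD3308 and 19 in DMSO. At counts this low it too may have passed the filter mainly through the BRD3308 libraries of BB cells, so the call carries little weight.

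Among 24 genes of proteases that serpins inhibit, 11 were tested, and in each construct 6 rose and 3 fell with BRD3308, with medians of 0.20, 0.25 and 0.18 in P199L-ERG, WT-ERG and BB cells, against medians of -0.01, -0.00 and 0.01 and called shares of 48.5%, 48.0% and 45.9% over all genes. Besides Elane and C1ra, Ctsl (cathepsin L, a target of Serpina3g in the mouse) rose by 0.79 in P199L-ERG cells, 0.79 in WT-ERG cells and 1.10 in BB cells. Ctsb (cathepsin B), the other target usually named for Serpina3g, fell, with log2 fold changes of -0.15, -0.12 and -0.18. Plau, the target of Serpinb2, was lower than in BB cells in DMSO in both P199L-ERG (-0.72, SE 0.18, adjusted p = 0.00348) and WT-ERG cells (-1.13, SE 0.19, adjusted p = 3.95e-05), and at -0.65 and -1.01 without both replicates 4 that stand apart, both called. Ctss (cathepsin S) was also lower there, at -3.88 to -2.96 in P199L-ERG and -3.87 to -2.10 in WT-ERG cells over single libraries left out. Between constructs in DMSO, 1 of the 11 was higher and none lower for P199L-ERG against WT-ERG (4.67% of all genes called), 2 were higher and 2 lower for P199L-ERG against BB (28.2%), and 1 was higher and 3 lower for WT-ERG against BB (29.7%). These counts are close to what the shares of all genes give for 11.

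Serpina3g and Serping1 are known to be induced by interferon gamma, so 19 genes of that response were read beside them, of which 14 were tested. With BRD3308, 9 rose and 1 fell in P199L-ERG cells, 8 rose and 1 fell in WT-ERG cells, and 10 rose and 1 fell in BB cells, with medians of 0.30, 0.29 and 0.41. Over all genes 24.4%, 24.7% and 24% rose and 24.1%, 23.2% and 22.0% fell in the same order, with medians of -0.01, -0.00 and 0.01. The chemokine gene Cxcl10 rose by 1.63, 1.89 and 1.74 in these constructs, and Cd274, the gene of PD-L1, by 1.62, 1.53 and 1.49. Between constructs the list had no single direction in DMSO. For P199L-ERG against BB 4 genes were higher and 2 lower, and for WT-ERG against BB 3 were higher and 2 lower (28.2% and 29.7% of all genes called), among them Ifi47 (0.54 and 0.53) and Gbp7 (-0.75 and -0.87).

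Summed markers of maturing myeloid cells were higher with BRD3308 in each construct. All 5 tested of 6 monocyte markers rose with BRD3308 in each construct, and their sum was 1140 to 1210 CPM against 368 to 423 CPM in P199L-ERG cells, 934 to 974 CPM against 307 to 319 CPM in WT-ERG cells, and 1360 to 1430 CPM against 625 to 657 CPM in BB cells. Over all genes 24.4%, 24.7% and 24% rose in P199L-ERG, WT-ERG and BB cells, and 48.5%, 48.0% and 45.9% were called in either direction. Of the 8 neutrophil markers 3 rose and 1 fell in P199L-ERG cells, 4 rose and 1 fell in WT-ERG cells, and 3 rose and 2 fell in BB cells. These neutrophil counts cannot be set apart from the shares called over all genes. The summed neutrophil markers were at 5700 to 6510 CPM with BRD3308 against 2840 to 3830 CPM in DMSO in P199L-ERG cells, 6060 to 7490 CPM against 3180 to 4290 CPM in WT-ERG cells, and 5570 to 7270 CPM against 3750 to 4580 CPM in BB cells. The monocyte sum was also lower in both ERG lines than in BB cells under each treatment. Of the 5 tested monocyte markers 3 were lower and 1 was higher in each of these comparisons. Of the 8 neutrophil markers 5 were lower and 1 was higher in DMSO in both ERG lines. With BRD3308, 4 were lower and 1 was higher in P199L-ERG cells, and 5 and 1 in WT-ERG cells. Over all genes 12.9% and 14.1% were lower in DMSO for P199L-ERG and WT-ERG against BB, and 8.81% and 10.7% with BRD3308. The part of these shifts in the changes of the serpins was not tested.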

How the data were processed

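RNA-seq was available for 24 libraries, 4 for each of 6 groups of construct and treatment taken from the labels. The deposited values are counts of reads per gene, made by the authors with STAR on GRCm38 after reads under 30 bp were discarded. Cutadapt, HTSeq and DESeq2 appear in the submitters' processing notes with no version. Annotation and strand setting were not stated there or in the methods, so reads of overlapping genes may be shared. Of 53801 rows, 53620 matched GENCODE M21. The dose and time are those of the deposited design, and the paper gives another time in its results and another dose in a figure legend.

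One quasi-likelihood model with a coefficient per group was fitted to all libraries in edgeR 4.0.16 (R 4.3.3), with TMM factors and the filterByExpr filter. P-values were two-sided and adjusted by Benjamini-Hochberg over 12963 genes, with a threshold of 0.05, and the script was tested on simulated data. CPM, and the ratios of summed Serpina3g counts, are per library total of the genes past the filter, scaled by the TMM factors. Serpinb2, which the filter removed, was tested with SciPy 1.17.1 in an exact permutation test added after the data were seen.

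The members and lists were chosen with earlier results of these data known. All members were named, with up to 4 other serpins per comparison by the largest fold change, and up to 4 target proteases and 4 interferon gamma inducible genes by the smallest p, all past the threshold, plus the targets of members, the mouse Erg gene, and the 3 genes most like Serpina3g and Serpinb10 among genes whose mean log2 CPM reached 2 (prior count 1). Nqo2 and Ripk1, which overlap Serpinb6a, were added after their values were seen. The alternatives tried were scaling by RLE factors or by library size, no filter, DESeq2 1.42.0, limma-voom (limma 3.58.1), the compared groups alone, a replicate block, each library left out, and both replicates 4 left out.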

Additional observations from a re-analysis of the deposited data

Results flagged for a closer look

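The response of Serpinf1 differed between P199L-ERG and BB cells in the test of the difference itself (-0.26 on the log2 scale, SE 0.06, 95% interval -0.39 to -0.13, edgeR adjusted p = 0.0435). The means were 166.6 CPM with BRD3308 and 170.3 CPM in DMSO in P199L-ERG cells, and 186.5 and 159.5 CPM in BB cells. Replicate 4 of P199L-ERG in DMSO was at 193.3 CPM, above the 158.9 to 168.1 CPM of the others in its group, and the call was lost in 12 of 24 fits that left out a single library (-0.29 to -0.19), 6 of them BB libraries (replicates 1, 2 and 3 in DMSO and 1, 3 and 4 with BRD3308), 3 WT-ERG libraries (2 and 3 in DMSO, 2 with BRD3308) and 3 P199L-ERG libraries (2, 3 and 4 with BRD3308). It held without both replicates 4 that stand apart (-0.19, adjusted p = 0.0253, with 0.0079 to 0.116 over all alternatives).

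In 3 of 58 groups of 4 values a single library stood off from the rest by Dixon's criterion, which chance alone passes in about 5% of groups. Serpinb8 was at 3.83 CPM in replicate 4 of BB with BRD3308, against 2.79 to 2.94 CPM in the other 3. Serpinb12 was at 0.70 CPM in replicate 2 of P199L-ERG with BRD3308, against 0.46 to 0.47 CPM, and at 0.42 CPM in replicate 1 of WT-ERG in DMSO, against 0.55 to 0.57 CPM. None of the 8 members had such a library.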

How the results depend on the processing

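Serpina3g and Serpinb10 kept the direction of their fold changes between ERG constructs and BB, and Serpinb10 that of its responses, under every alternative run, as did the falls of Serpinb1a and the rises of Serpinb9 with BRD3308, which also stayed called. Without replicate 3 of BB in DMSO, which held 3 of 4 counts, the fitted log2 fold change of Serpina3g was 9.94 for WT-ERG and 9.29 for P199L-ERG. Leaving out single libraries gave 8.20 to 9.94 and 7.55 to 9.29, and the ratio of summed counts ran over 319.9 to 1328.

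Some values near 0 changed sign. For Serpinb9, WT-ERG against BB in DMSO was -0.0064 with RLE factors and without a filter, -0.0078 with DESeq2, -0.0038 with limma-voom, -0.0027 with the replicate block and -0.0067 in the compared groups alone, and ran over -0.13 to 0.14 without single libraries. Leaving out single libraries also turned Serpinb9 for WT-ERG against BB (-0.11 to 0.0236) and P199L-ERG against WT-ERG (-0.13 to 0.00864) with BRD3308, its differences in response WT-ERG minus BB (-0.16 to 0.11), P199L-ERG minus BB (-0.0766 to 0.20) and P199L-ERG minus WT-ERG (-0.0493 to 0.23), the difference WT-ERG minus BB of Serpinb6a (-0.12 to 0.0533) and the response of Serpina3g in P199L-ERG cells (-0.096 to 0.0172). The difference P199L-ERG minus BB of Serpinb1a was 0.0017 with RLE factors, 0.0207 with library size alone, 0.0172 without a filter, 0.0043 with DESeq2 and 0.0299 without both replicates 4, and ran over -0.0333 to 0.0282. Without both replicates 4 Serpinb6a gave 0.0535 for the difference WT-ERG minus BB.

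Same-numbered replicates correlated at -0.0131 to 0.268, not above 0.1 in all pairs of any comparison, and no source says that a number marks a shared batch, so the samples were not treated as paired. Deviations still followed the number in part: the correlation with exon length was highest in replicate 1 of all 6 groups (0.127 to 0.364) and negative in replicate 4 of all 6 (-0.40 to -0.0086). The weakest of these, -0.0086 in P199L-ERG with BRD3308, was above replicates 2 (-0.0314) and 3 (-0.122) of its group. With the replicate block Serpinb6a was called for WT-ERG against BB in DMSO (-0.27, adjusted p = 0.0163). The block called 1026 genes in place of 606 for P199L-ERG against WT-ERG in DMSO, 732 in place of 441 with BRD3308, and 421, 467 and 28 in place of 224, 136 and 6 for the differences in response WT-ERG minus BB, P199L-ERG minus BB and P199L-ERG minus WT-ERG. Without a filter these last were 300 for P199L-ERG minus BB and 21 for P199L-ERG minus WT-ERG, with DESeq2 18 for P199L-ERG minus WT-ERG, and without both replicates 4 they were 350 for WT-ERG minus BB and 13 for P199L-ERG minus WT-ERG, beside 702 for P199L-ERG against WT-ERG with BRD3308. In the compared groups alone the counts were 2237 for P199L-ERG against BB and 229 for P199L-ERG against WT-ERG in DMSO, and 1 for P199L-ERG minus WT-ERG. Without single libraries the differences in response called 164 to 371, 79 to 176 and 0 to 8 genes. The cause of these shifts was not tested.

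Serpinf1's difference in response was not called with library size alone (-0.23, adjusted p = 0.0545) or in the compared groups alone (-0.26, adjusted p = 0.116), nor was Serpinb12's response in BB cells with DESeq2 (adjusted p = 0.0722) or without replicate 1 or 2 of BB in DMSO or 3 or 4 of BB with BRD3308 (log2 fold changes of 0.79 to 1.61 over all single libraries left out). Without a filter Serpinb2 was called in P199L-ERG (2.43, adjusted p = 0.00184) and BB cells (2.69, adjusted p = 4.16e-05) and not in WT-ERG cells (0.89, adjusted p = 0.185). Counts under about 10 per library limit what can be said of Serpina3f, Serpinb2 and of Serpina3g in BB cells.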
